A study of Mus musculus with 9 samples.

Results

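The genes described here are the chemokines, the chemokine receptors and the interleukins of the mouse, followed in NMuMG cells, an immortalized line of normal mouse mammary gland epithelium. Membership went by gene symbol alone, as the Ccl, Cxcl and Cx3cl1 ligands, the Ccr, Cxcr and Ackr receptors, and the interleukins proper without their receptor subunits or binding proteins. The families themselves were chosen with earlier results of these data known. The rule found 91 of the 52459 gene symbols in the data, of which 37 are chemokine ligands, 21 are receptors and 33 are interleukins.

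The 9 RNA-Seq libraries came from untreated NMuMG cells stably transfected with a pBICEP-based vector and selected with G418, so that every group carries vector sequence and passed through the drug. The 3 mock libraries held the empty vector, the 3 EPR libraries overexpressed the long noncoding RNA BC030870, which the study calls EPR, and the 3 EPRSTOPE libraries overexpressed the same RNA with a stop at the second codon of its short reading frame, so that no peptide is made. Each population was a pool of transfectants, in which the vector's own promoter and not that of the gene drives the RNA. The paper calls the 3 libraries of a condition biological triplicates, and elsewhere reports an analysis of 3 independent EPRSTOPE pools with qRT-PCR. Whether the 3 libraries of a condition came from separate pools is not stated, so the p-values below measure the spread between these libraries only. BC030870 itself had 0 to 2 estimated counts in mock, 214 to 271 in EPR and 28 to 39 in EPRSTOPE. The mutant cells therefore carried less of the RNA as well as no peptide. These 2 differences, and any other difference between the transfected populations, cannot be told apart in any comparison of EPR with EPRSTOPE.

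Chemokines are small secreted proteins that draw cells along a gradient by binding receptors coupled to G proteins. The CXC chemokines that carry a glutamate-leucine-arginine motif, among them Cxcl1, Cxcl2, Cxcl3, Cxcl5 and Cxcl15 in the mouse, attract neutrophils, most of them through Cxcr2. By contrast, Ccl2 and Ccl7 attract monocytes through Ccr2. Atypical receptors such as Ackr3 bind and remove chemokines without signalling through G proteins. Interleukins act on many cell types, and epithelial cells are known sources of several of them, including Il6, Il11, Il15, Il18 and Il33. Many of these genes are targets of NF-kB, a family of transcription factors that inflammatory signals release into the nucleus.

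Library totals ran from 5972457 to 11876435 estimated counts, so that 3 counts corresponded to between 0.244 and 0.508 CPM, the count scaled to library size with TMM factors that set the libraries to a common level. The cells were checked against lists of cell type markers. Of 13 epithelial markers, 8 had enough reads to be tested. By the thresholds given below, all 8 rose in EPR and 5 in EPRSTOPE, where 15.2% and 15.6% of all genes tested did. Between EPR and EPRSTOPE, 4 of the 8 were higher in EPR and 0 lower, against 6.86% and 6.35% of all genes. Epcam stayed under 1 CPM outside EPR, and Ocln under 1 CPM in mock, so both entered the test where they were high. Of the 13, 5 stayed under 3 CPM in every library. The summed level of the list was 3703.5 to 4171.1 CPM in mock, 9536.4 to 10641.8 in EPR and 10705.9 to 11045.6 in EPRSTOPE. Most of it came from Krt8 and Krt18, with means of 2108 and 1526 CPM in mock, 5263 and 3746 in EPR, and 5977 and 4137 in EPRSTOPE. The epithelial cadherin Cdh1 stood at 0.311 to 1.16 CPM in mock, against 541.6 to 568.7 in EPR and 381.4 to 426.8 in EPRSTOPE, while Epcam had no count in mock, 2.40 to 4.30 CPM in EPR and 0 to 0.214 in EPRSTOPE, and passed the test in EPR against mock and against EPRSTOPE but not in EPRSTOPE against mock. Of 16 leukocyte markers, 15 stayed under 3 CPM in every library and 3 had no count, and the sum of the list was 41.9 to 46.2 CPM in mock, 292.8 to 321.0 in EPR and 190.3 to 215.7 in EPRSTOPE, almost all of it from Cd14. Of 12 fibroblast markers, 11 stayed under 3 CPM everywhere, and the summed level was 18.1 to 21.4 CPM in mock, 2.8 to 3.4 in EPR and 4.4 to 4.7 in EPRSTOPE. Of 8 endothelial and 8 myoepithelial markers, 7 and 5 were under 3 CPM in every library. The summed endothelial level was 14.3 to 14.8 CPM in mock, 14.4 to 17.4 in EPR and 12.9 to 20.1 in EPRSTOPE, and the myoepithelial sum was 17.4 to 21.1, 59.3 to 66.9 and 39.7 to 42.5. In the latter list Mylk rose from 6.68 to 8.86 CPM in mock to 57.4 to 65.3 in EPR and 36.8 to 39.0 in EPRSTOPE, and Acta2 fell from 9.32 to 10.7 CPM to at most 1.31 and 1.38. Krt14, at most 1.09 CPM in mock, had no count in EPR and 1.38 to 3.22 CPM in EPRSTOPE. Its rise in EPRSTOPE over mock did not pass (edgeR adjusted p = 0.037). The part of these marker changes in the values below was not tested.

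Of the 91 genes, 25 reached 1 CPM (here by library size alone, without TMM) in at least 3 libraries and were tested, namely 13 ligands, 4 receptors and 8 interleukins. Among the other 66, 23 had no count in any library, and the highest count of all of them was 18, for Ccl28 in an EPRSTOPE library. Only 8 of them reached 10 counts anywhere, namely Ackr4, Ccl28, Ccr10, Ccr2, Cxcl17, Cxcl2, Il16 and Il1a. At 1 CPM or more in all 9 libraries were 11 genes, Ccl2, Ccl20, Ccl25, Ccl7, Ccl9, Cxcl1, Cxcl5, Cxcr2, Il33, Il34 and Il7. Of the tested genes, 5 had no mock library at 1 CPM (Ackr3, Cxcl15, Cxcl16, Il18 and Il6), and these entered the test through the cells in which they were high. Among them, Cxcl15, Cxcl16 and Il18 reached 1 CPM in the 3 EPR libraries alone. Cxcl12 reached it in the 3 mock libraries alone, so it too entered through the cells in which it was high. Il11 reached it in 3 mock, 0 EPR and 2 EPRSTOPE libraries, and so passed the filter only with the help of mock, where it was high. Counts over the tested genes are thus descriptions of those genes and not of the families.

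The threshold for a change was an adjusted p below 0.01 from edgeR together with a shift of more than 0.5 on the log2 scale. Between EPR and mock, 16 of the 25 tested genes changed, 12 higher and 4 lower, where 28.1% of all 15370 genes tested changed, 15.2% higher and 12.9% lower. Between EPRSTOPE and mock, 14 changed, 9 higher and 5 lower, against 28% of all genes, 15.6% higher and 12.4% lower. Between EPR and EPRSTOPE, 9 changed, 5 higher and 4 lower in EPR, against 13.2% of all genes, 6.86% higher and 6.35% lower. The median log2 fold change of the 25 genes was 0.60, 0.13 and 0.00 in these comparisons, and that of all genes was -0.01, -0.04 and 0.01. Both comparisons with mock use the same 3 mock libraries, so their values are set side by side below and were not taken as separate evidence.

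The genes of these families together took 0.070 to 0.072% of the counts in mock, 0.460 to 0.472% in EPR and 0.410 to 0.440% in EPRSTOPE. Most of that rise came from Cxcl5 alone. Without Cxcl5, the summed level was 656.8 to 692.0 CPM in mock, 1969.0 to 2127.5 in EPR and 1704.4 to 1802.6 in EPRSTOPE. Per length of transcript, on the TPM scale, Ccl2 led the mock cells at 505.3 ± 8.7 (SD, n = 3), followed by Cxcl1 at 105.8 ± 15.4 and Ccl9 at 49.3 ± 8.6. In EPR the order was Cxcl5 at 1590 ± 62, Ccl2 at 1016 ± 74 and Cxcl1 at 858 ± 86, with Ccl20 at 168 ± 17 and Ccl7 at 160.2 ± 2.7, which lie within their spread of each other. In EPRSTOPE it was Cxcl5 at 1645 ± 170, Ccl2 at 1179 ± 239, Cxcl1 at 678 ± 72, Ccl7 at 204.1 ± 34.8 and Ccl20 at 97.3 ± 13.7. By mean TPM among the 15370 genes tested, Cxcl5 ranked 12425 in mock, 32 in EPR and 33 in EPRSTOPE. Since these are bulk RNA samples, a few cells with much of an RNA and many cells with little of it cannot be told apart.

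**Figure D1:**
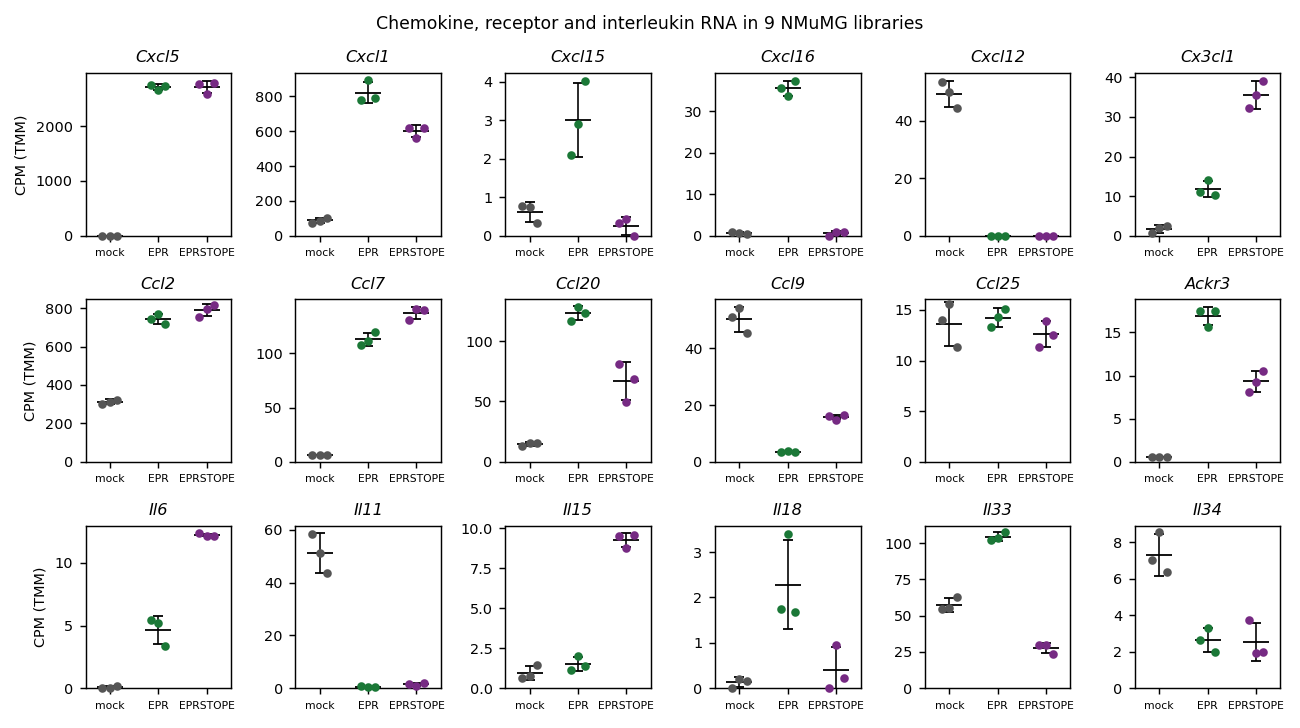
TMM-scaled CPM (linear axes from 0, a different range in each panel) of 18 genes in the 3 mock, 3 EPR and 3 EPRSTOPE libraries; each point is a library, and the bars give the mean and SD of 3 libraries. Cxcl5, Cxcl1, Ccl2 and Ccl7 were high with both constructs, Cxcl16 with EPR alone, Il15 with EPRSTOPE alone, and Cxcl12, Ccl9 and Il11 were highest in mock.

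Among the neutrophil-attracting ligands, Cxcl5 and Cxcl1 rose with both constructs, Cxcl15 rose with EPR, and Cxcl2 and Cxcl3 stayed at the limit of detection. Cxcl5 (ENSMUSG00000029371.7, chr5:90759360-90761624 of GRCm38, plus strand) had 1.86, 2.64 and 0.977 CPM in the mock libraries, from 12, 25 and 12 counts. It had 2754, 2655 and 2735 CPM in EPR and 2771, 2584 and 2784 in EPRSTOPE. The rise was 1487-fold in EPR (log2 fold change 10.58 ± 0.19 (SE), edgeR adjusted p = 1.95e-12) and 1486-fold in EPRSTOPE (10.58 ± 0.19, edgeR adjusted p = 2.44e-12). The constructs did not differ for this gene beyond the spread, at 0.00 ± 0.11, and their libraries overlapped. Its protein-coding transcript held 88.8 to 89.5% of the gene's counts in EPR and 89.2 to 92.5% in EPRSTOPE.

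Cxcl1 (ENSMUSG00000029380.11, chr5:90891241-90893115, plus strand) was already present in mock, at 73.5, 87.1 and 103.3 CPM. It reached 779.8, 892.3 and 793.2 CPM in EPR and 621.1, 560.5 and 620.9 in EPRSTOPE. No 2 groups overlapped, and the rise over mock was 9.34-fold in EPR (log2 fold change 3.22 ± 0.11, edgeR adjusted p = 5.51e-10) and 6.83-fold in EPRSTOPE (2.77 ± 0.11, edgeR adjusted p = 1.50e-09). EPR lay above EPRSTOPE by 0.45 ± 0.10 on the log2 scale (edgeR adjusted p = 0.0053), which misses the required fold. Cxcl15 had 0.777, 0.739 and 0.326 CPM in mock, 2.09, 2.90 and 4.02 in EPR, and 0.339, 0.427 and 0 in EPRSTOPE. EPR stood above mock by 2.33 ± 0.56 (edgeR adjusted p = 0.0042) and above EPRSTOPE by 3.51 ± 0.65 (edgeR adjusted p = 0.0016), all on at most 43 counts a library. The first of these calls was lost without mock 204, mock 205, EPR 207 or EPR 208 (edgeR adjusted p = 0.0122, 0.0268, 0.0113 and 0.0208) and with counts scaled from TPM (0.0123).

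These ligands lie side by side on chromosome 5, and the genes between them did not all move. From the start of Cxcl5, Ppbp lies at 9.2 kb, Pf4 at 13.1, Cxcl3 at 26.7, Cxcl15 at 35.2, Cxcl1 at 131.9 and Cxcl2 at 144.5 kb. Cxcl3 had mean levels of 0.176, 0.243 and 0.261 CPM in mock, EPR and EPRSTOPE, and Cxcl2 had 0.313, 0.447 and 0.469 CPM. Neither passed the filter, with at most 5 and 10 counts in a library. Ppbp and Pf4, the platelet chemokines, are not named as Cxcl genes and so are outside the 91. Ppbp had 0.193, 4.54 and 0.471 CPM, and Pf4 had no count in mock and at most 5 in any library. EPR passed for Ppbp against mock (4.56 ± 0.48, edgeR adjusted p = 8.28e-06) and against EPRSTOPE (3.26 ± 0.43, edgeR adjusted p = 0.00013). Outside the chemokine genes, Mthfd2l at 171.8 kb had 22.5, 19.9 and 19.9 CPM, while Rassf6 at -156.3 kb had 0.567, 33.8 and 20.2 CPM.

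**Figure D2:**
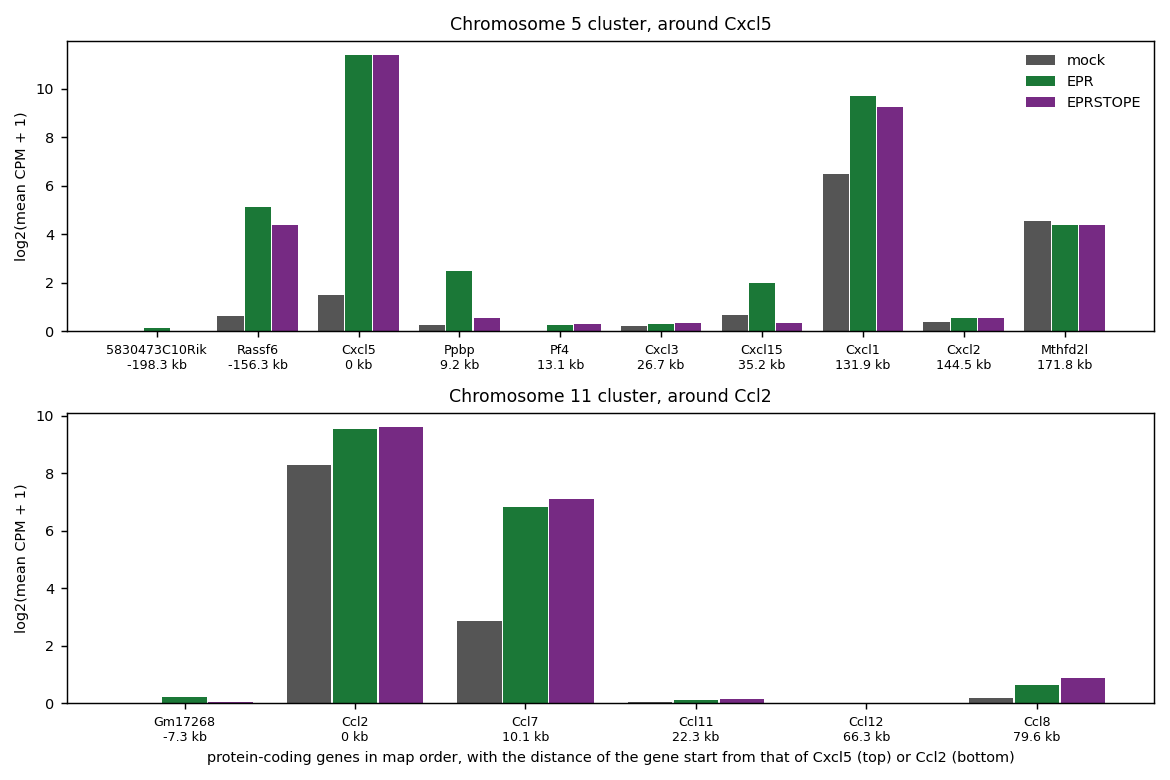
Mean level, as log2(CPM + 1), of the protein-coding genes around Cxcl5 (top) and around Ccl2 (bottom) in mock, EPR and EPRSTOPE, in map order and with the distance between gene starts in kb. Cxcl5 and Cxcl1 stood out at 0 and 131.9 kb with Cxcl3 and Cxcl2 near 0 beside them, and Ccl2 and Ccl7 stood out at 0 and 10.1 kb with Ccl11, Ccl12 and Ccl8 near 0.

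Proximal promoter sequence is shown for 6 of the 9 genes of these families that hold the letters of an NF-kB site there, namely the 4 that were tested (Cxcl1, Ccl20, Il6 and Ccl9) and Cxcl2 and Cxcl3, which lie in the cluster just described and stayed near 0. Of the 4 tested, Ccl9 fell and the others rose with both constructs. Of all 25 tested genes of the families, 12 rose with EPR and 9 with EPRSTOPE, beside 15.2% and 15.6% of all genes. Il6 reached 1 CPM in no mock library. A link between the letters and these changes was not tested. The sequences are RefSeq's, on GRCm38.p6, each written 5′ to 3′ on the gene's own strand and ending at the base before its RefSeq start. Capitals mark every match, on either strand, to the NF-kB letters GGG, any 2 bases, then TTTCC. No 2 matches overlap.

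Cxcl1 promoter, chr5:90891135-90891244, plus strand: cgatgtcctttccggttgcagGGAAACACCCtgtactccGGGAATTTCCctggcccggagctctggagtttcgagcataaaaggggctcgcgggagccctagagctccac
Cxcl2 promoter, chr5:90903789-90903898, plus strand: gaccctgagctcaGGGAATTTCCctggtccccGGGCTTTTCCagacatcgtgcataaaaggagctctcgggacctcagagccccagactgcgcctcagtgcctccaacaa
Cxcl3 promoter, chr5:90785991-90786100, plus strand: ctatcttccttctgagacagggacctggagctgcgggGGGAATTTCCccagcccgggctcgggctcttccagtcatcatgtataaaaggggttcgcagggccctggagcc
Ccl20 promoter, chr1:83116656-83116765, plus strand: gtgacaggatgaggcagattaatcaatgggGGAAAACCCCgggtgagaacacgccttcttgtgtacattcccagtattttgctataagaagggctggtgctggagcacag
Il6 promoter, chr5:30013004-30013113, plus strand: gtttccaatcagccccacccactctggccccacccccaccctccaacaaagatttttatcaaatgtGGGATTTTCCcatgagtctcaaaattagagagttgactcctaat
Ccl9 promoter, chr11:83578637-83578746, minus strand: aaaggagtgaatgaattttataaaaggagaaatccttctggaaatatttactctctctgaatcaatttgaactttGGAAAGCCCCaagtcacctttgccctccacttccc

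The first matched base lay 89 and 71 bases before the start in Cxcl1, 97 and 78 in Cxcl2, 73 in Cxcl3, 80 in Ccl20, 44 in Il6 and 35 in Ccl9. Within 250 bases before the start, these letters occur in 1.41% of 32851 promoter windows of all genes. At least 1 window was at hand for 67 of the 91 genes, and 9 of those genes held a match, in 9 of their 80 windows. The 3 not shown are Ccr3, Il16 and Il9, none of which was tested. Of the 17 tested genes with a window, 4 held one (Ccl20, Ccl9, Cxcl1 and Il6). The AP-1 letters TGANTCA occur in 6.75% of all windows and in 12 of the 80. By gene, 5 of the 17 held them in at least 1 window, namely Ccl27a, Ccl9, Cxcl10, Il11 and Il6. A match is a run of letters and not a measured binding site. Tested genes without a window included Ccl2, Ccl7, Cxcl16, Cxcl5, Il15, Il34 and Il7.

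The monocyte-attracting ligands Ccl2 and Ccl7, neighbours on chromosome 11, both rose, from very different starting levels. Ccl2 (ENSMUSG00000035385.5, chr11:82035571-82037453, plus strand) had 299.5, 312.3 and 324.3 CPM in mock, 744.0, 770.6 and 714.7 in EPR and 755.2, 793.2 and 816.1 in EPRSTOPE. That is 2.38-fold with EPR (log2 fold change 1.25 ± 0.05, edgeR adjusted p = 3.42e-09) and 2.53-fold with EPRSTOPE (1.34 ± 0.05, edgeR adjusted p = 1.69e-09). The 2 constructs overlapped. Ccl7 (ENSMUSG00000035373.2, chr11:82045712-82047525, plus strand) had 6.37, 5.91 and 6.76 CPM in mock, 107.4, 111.9 and 119.8 in EPR, and 131.0, 141.0 and 140.3 in EPRSTOPE. It rose 17.8-fold (4.15 ± 0.08, edgeR adjusted p = 4.46e-12) and 21.7-fold (4.43 ± 0.08, edgeR adjusted p = 2.60e-12). Levels were somewhat higher in every EPRSTOPE library than in any EPR library, by 0.28 on the log2 scale, which is under the fold required. Further along the cluster, Ccl11 at 22.3 kb had at most 3 counts, Ccl12 at 66.3 kb none, and Ccl8 at 79.6 kb at most 9.

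Ccl20 and Cx3cl1 rose with both constructs but to different levels. Ccl20, the ligand of Ccr6 that attracts immature dendritic cells and some lymphocytes, had 13.0, 15.8 and 15.9 CPM in mock, 117.0, 128.4 and 123.5 in EPR, and 81.1, 49.98 and 68.9 in EPRSTOPE. EPR exceeded EPRSTOPE 1.84-fold (log2 fold change 0.89 ± 0.14, edgeR adjusted p = 0.00041) with no overlap, and both exceeded mock, by 8.24-fold and 4.47-fold. Cx3cl1, a chemokine made as a membrane-anchored protein, had 0.621, 2.005 and 2.44 CPM in mock, 10.997, 14.1 and 10.4 in EPR, and 32.2, 35.5 and 39.1 in EPRSTOPE. Here the mutant was the higher, 21.1-fold above mock (4.27 ± 0.26, edgeR adjusted p = 5.34e-08) where EPR was 7.01-fold above it (2.67 ± 0.27, edgeR adjusted p = 5.61e-06). The direct difference of EPR from EPRSTOPE was -1.60 ± 0.20 (edgeR adjusted p = 9.30e-05).

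Cxcl16, which like Cx3cl1 is made as a transmembrane chemokine, was high in EPR alone. Its levels were 0.777, 0.633 and 0.488 CPM in mock, 35.5, 33.6 and 37.2 in EPR, and 0, 0.961 and 0.805 in EPRSTOPE. Mock and EPRSTOPE overlapped (log2 fold change 0.12 ± 0.54, edgeR adjusted p = 0.88), whereas EPR exceeded mock by 5.84 ± 0.32 (edgeR adjusted p = 2.63e-08) and EPRSTOPE by 5.72 ± 0.32 (edgeR adjusted p = 1.32e-07). Of its counts in EPR, 31.2 to 36.5% belonged to the protein-coding transcript. A transcript annotated for nonsense-mediated decay took 44.4 to 53.9%, and a transcript with a retained intron took 14.9 to 19.1%.

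The ligands Cxcl12 and Ccl9 were lower with both constructs. Cxcl12, the ligand of Cxcr4 and Ackr3 that stromal cells commonly make, had 53.4, 49.8 and 44.3 CPM in mock, from 344, 472 and 544 counts, and no count in any of the other 6 libraries. At a floor of 3 counts per library this is at least 129.8-fold lower in EPR and at least 96.8-fold lower in EPRSTOPE (edgeR adjusted p = 3.99e-08 and 4.48e-08). Between 83.4 and 95.3% of its mock counts were in protein-coding transcripts. The 2 tested genes of the fibroblast list moved in opposite directions. Ebf3 had 16.9 to 20.5 CPM in mock and at most 0.115 elsewhere, whereas Pdgfra had no count in mock, 0.960 to 1.39 CPM in EPR and 1.02 to 1.495 in EPRSTOPE, and both passed the test with each construct. Their part in the Cxcl12 value was not tested.

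Ccl9, a CC chemokine of myeloid cells that is found in mice, fell in steps that did not overlap. It had 51.0, 54.2 and 45.5 CPM in mock, 16.1, 14.8 and 16.5 in EPRSTOPE, and 3.32, 3.91 and 3.36 in EPR. EPR was 14.2-fold below mock (log2 fold change -3.83 ± 0.12, edgeR adjusted p = 2.30e-10), EPRSTOPE was 3.18-fold below it (-1.67 ± 0.10, edgeR adjusted p = 6.72e-08), and EPR was 4.47-fold below EPRSTOPE (-2.17 ± 0.13, edgeR adjusted p = 1.84e-07). The remaining tested ligands, Ccl25, Ccl27a and Cxcl10, passed the thresholds in no comparison. Ccl25 had 13.98, 15.6 and 11.3 CPM in mock, 13.3, 14.3 and 15.1 in EPR, and 11.4, 13.9 and 12.5 in EPRSTOPE. All groups overlapped, and only 8.4, 14.1 and 15.9% of its counts in mock, EPR and EPRSTOPE were in protein-coding transcripts. Ccl27a and Cxcl10 ran from 0.379 to 3.10 CPM.

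The receptors for most of these ligands had little or no RNA in the same cells, and of the 4 tested a single receptor, Ackr3, changed. Ackr3, the atypical receptor of Cxcl12 that takes the ligand up and degrades it, had 0.621, 0.528 and 0.570 CPM in mock, 17.5, 15.7 and 17.5 in EPR, and 8.13, 9.29 and 10.6 in EPRSTOPE. No groups overlapped. It was 29.5-fold above mock in EPR (log2 fold change 4.86 ± 0.21, edgeR adjusted p = 3.71e-09), 16.3-fold in EPRSTOPE (4.01 ± 0.22, edgeR adjusted p = 2.44e-08), and 1.81-fold higher in EPR than in EPRSTOPE (0.85 ± 0.15, edgeR adjusted p = 0.00096). Ackr3 was thus higher than in mock in the libraries where Cxcl12 had no count. By mean TPM among the 15370 genes tested it ranked only 8926 in EPR and 10450 in EPRSTOPE. A link between the levels of Ackr3 and Cxcl12 was not tested.

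Cxcr2, the receptor of Cxcl5 and Cxcl1, was measured at 4.51 to 5.45 CPM in mock, 4.55 to 6.35 in EPR and 2.20 to 6.94 in EPRSTOPE, with log2 fold changes of 0.05 ± 0.33 and 0.10 ± 0.34 against mock. Ccr9 lay between 0.528 and 2.54 CPM and passed the thresholds in no comparison. Of the receptors not tested, Cxcr4, which signals for Cxcl12, had at most 2 counts in a library. Ccr2, the receptor of Ccl2 and Ccl7, had 3 to 11 counts, and Cxcr6, the receptor of Cxcl16, had 0 to 9. Ccr6, the receptor of Ccl20, had none, like Cxcr1 and Cxcr3. At this depth such genes cannot be compared between groups.

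**Figure D3:**
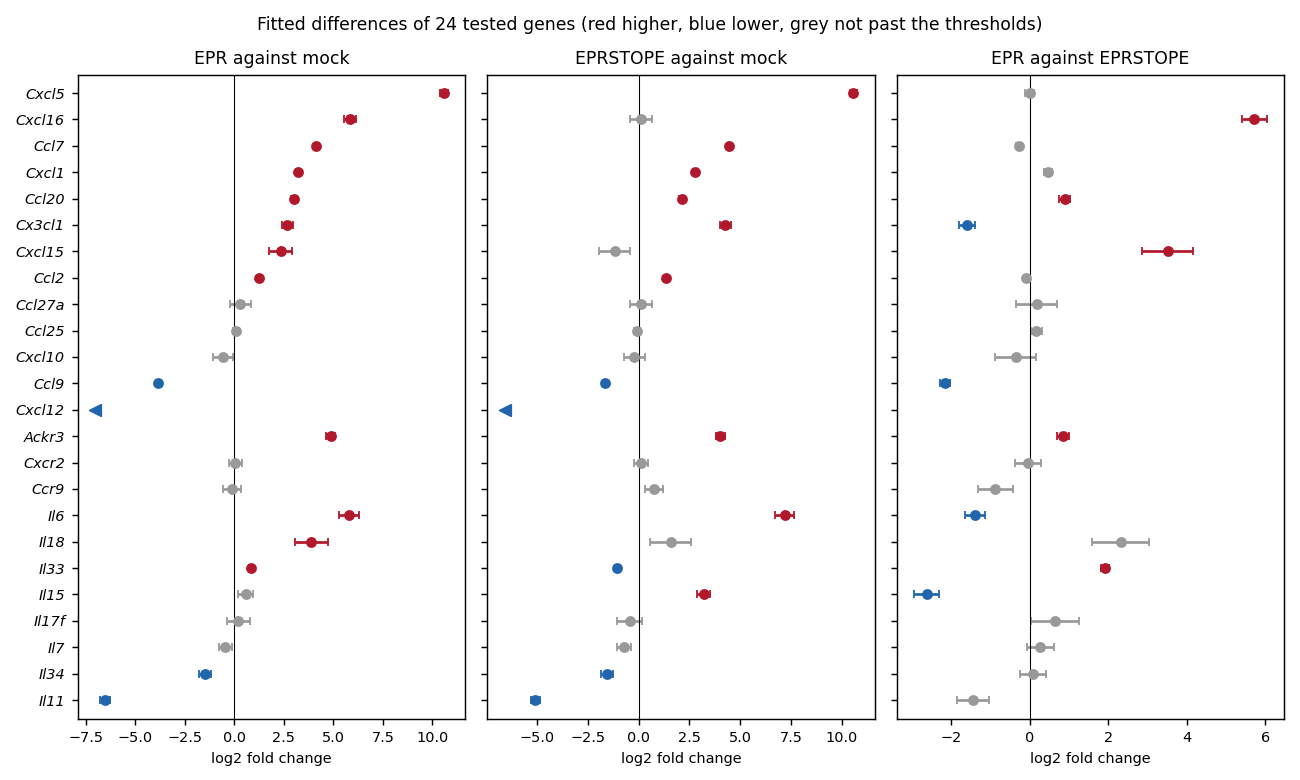
Fitted log2 fold changes with their SE (edgeR) of 24 of the tested genes, ordered within ligands, receptors and interleukins, in the 3 comparisons named above the panels. Triangles mark Cxcl12 at its lower bound of 129.8-fold and 96.8-fold, without a value in the third panel; Cxcl16, Il15 and Il33 show the constructs apart, and Cxcl5 lies at 10.58 with both.

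Of the 8 tested interleukins, Il6, Il15, Il18 and Il33 were higher in at least 1 construct, Il11 and Il34 were lower in both, and Il33 moved in opposite directions. Il6, a cytokine of the acute phase that signals through gp130, had 2 counts in all over the 3 mock libraries (0, 0 and 0.163 CPM). It had 5.41, 5.18 and 3.36 CPM in EPR and 12.4, 12.2 and 12.2 in EPRSTOPE. The ratio to mock from pooled counts scaled to library size was 65.2 in EPR (95% counting interval 17.7 to 543.4) and 172.4 in EPRSTOPE (47.3 to 1430.6), and both rises passed the test (edgeR adjusted p = 1.98e-06 and 1.25e-07). EPR lay below EPRSTOPE by -1.40 ± 0.26 (edgeR adjusted p = 0.0017), a call lost with counts scaled from TPM (-1.13, edgeR adjusted p = 0.11).

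Il11, a cytokine of the same gp130 group that is known as a TGF-β target, changed the other way. It had 58.6, 51.3 and 43.5 CPM in mock, 0.698, 0.379 and 0.467 in EPR, and 1.69, 0.854 and 1.96 in EPRSTOPE. The fall was 99.3-fold in EPR (log2 fold change -6.55 ± 0.25, edgeR adjusted p = 1.29e-09) and 34.1-fold in EPRSTOPE (-5.10 ± 0.22, edgeR adjusted p = 3.65e-09). The construct libraries held 3 to 17 counts each, and the difference between the constructs (-1.44 ± 0.40, edgeR adjusted p = 0.017) did not pass. It passed with DESeq2 (adjusted p = 0.0078), without the filter (0.0053) and without EPRSTOPE 210 (0.0046).

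Il33, an alarmin kept in the nucleus of epithelial cells and released on damage, had 54.4, 55.0 and 62.8 CPM in mock, 102.1, 103.8 and 107.9 in EPR, and 29.6, 30.01 and 23.8 in EPRSTOPE. It was 1.82-fold higher than mock in EPR (log2 fold change 0.86 ± 0.09, edgeR adjusted p = 5.59e-06) and 2.06-fold lower in EPRSTOPE (-1.05 ± 0.09, edgeR adjusted p = 1.83e-06), which set the constructs apart by 1.91 ± 0.09 (edgeR adjusted p = 4.27e-08). The genes around it moved in part with EPRSTOPE. Within 5 Mb of Il33, 39 other tested genes had median log2 fold changes of -0.03 in EPR and -0.61 in EPRSTOPE against mock, and the 476 tested genes of chromosome 19 had -0.02 and -0.55. The part of this regional shift in the Il33 value was not tested. For the other tested genes the neighbours' median stayed between -0.30 and 0.14 in both comparisons. The main Il33 transcript, ENSMUST00000025724.8, held 78.1 to 84.0% of the counts in mock, 79.7 to 85.1% in EPR and 61.1 to 75.1% in EPRSTOPE.

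**Figure D4:**
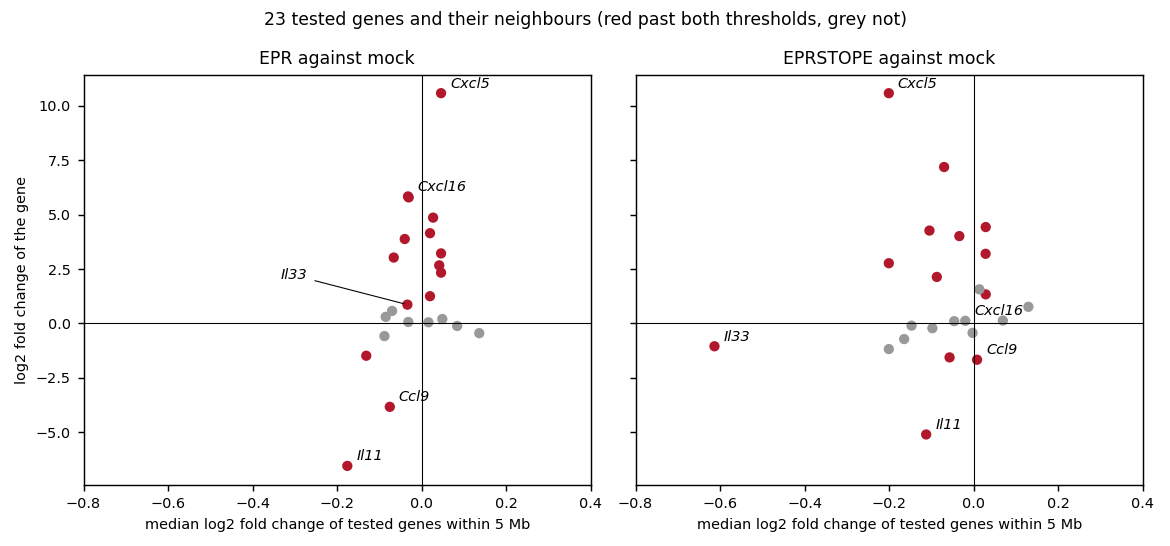
Log2 fold change of 23 tested genes (vertical) against the median log2 fold change of the other tested genes within 5 Mb (horizontal), for EPR against mock (left) and EPRSTOPE against mock (right); Cxcl12, which has no finite fold, is left out, and red marks genes past both thresholds. Il33 stands apart on the right, with a neighbours' median of -0.61.

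Il15, which sustains natural killer cells and memory T cells, rose with the mutant. It had 0.621, 0.739 and 1.47 CPM in mock, 1.13, 2.02 and 1.40 in EPR, and 9.49, 8.76 and 9.55 in EPRSTOPE. EPRSTOPE was 9.84-fold above mock (log2 fold change 3.20 ± 0.33, edgeR adjusted p = 7.28e-06), EPR overlapped with mock (0.58 ± 0.37, edgeR adjusted p = 0.23), and the constructs differed by -2.62 ± 0.32 (edgeR adjusted p = 6.50e-05). With counts scaled from TPM this last difference was of like size but missed the threshold (-2.72, edgeR adjusted p = 0.012). Protein-coding transcripts held 62.7 to 92.6% of the Il15 counts in EPR and 41.7 to 82.9% in EPRSTOPE. Il18, a cytokine that caspase-1 matures, had 0, 0.211 and 0.163 CPM in mock, 1.75, 3.41 and 1.68 in EPR, and 0, 0.961 and 0.230 in EPRSTOPE. The rise in EPR (3.88 ± 0.84, edgeR adjusted p = 0.0022) rests on 18 to 27 counts a library and was lost without mock 205 (0.0114) and with counts scaled from TPM (0.0124). Its difference between the constructs (2.31 ± 0.72, edgeR adjusted p = 0.029) missed the threshold and passed it without the filter (0.0028) and without EPRSTOPE 210 (0.0067).

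Il34, a ligand of the Csf1 receptor, had 6.99, 8.55 and 6.35 CPM in mock, 2.62, 3.28 and 1.96 in EPR, and 3.73, 1.92 and 1.96 in EPRSTOPE. It fell by 2.78-fold in EPR (log2 fold change -1.48 ± 0.30, edgeR adjusted p = 0.0014) and by 2.88-fold in EPRSTOPE (-1.56 ± 0.31, edgeR adjusted p = 0.0013), and the second call was lost with counts scaled from TPM (edgeR adjusted p = 0.015). The constructs overlapped. Protein-coding transcripts held 43.2 to 82.4% of the Il34 counts in mock, 70.0 to 93.2% in EPR and 40.8 to 71.3% in EPRSTOPE. Il7 and Il17f, at 0.155 to 3.73 CPM, passed the thresholds in no comparison. Of the classical starters of inflammation, Il1b had at most 2 counts and Il1a at most 16 in a library. The cytokines of T helper cells Il13, Il17a and Il22 had none, and Il4 at most 8.

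The receptors and pathways that these cytokines use were described from 5 gene lists. Each count and median below is to be set against all genes tested, of which 15.2% were higher and 12.9% lower with EPR, 15.6% and 12.4% with EPRSTOPE, and 6.86% and 6.35% between EPR and EPRSTOPE, and whose medians were -0.01, -0.04 and 0.01. Of 27 tested cytokine receptor subunits, 11 rose and 6 fell with EPR, 11 rose and 3 fell with EPRSTOPE, and EPR exceeded EPRSTOPE in 1 and lay below it in 8. The median log2 fold changes were 0.29, 0.42 and -0.21. Osmr, the oncostatin M receptor that pairs with gp130, had 3.44 ± 0.39, 23.7 ± 2.4 and 44.6 ± 5.1 CPM (SD, n = 3) in mock, EPR and EPRSTOPE. Il11ra1, the receptor of Il11, had 1.97 ± 0.90, 12.3 ± 0.9 and 12.3 ± 4.0 CPM, higher in the libraries where Il11 was low. Il17rc, a subunit of the Il17 receptor, had 26.9 ± 1.9, 13.4 ± 1.7 and 21.8 ± 1.8 CPM, lower in EPR than in either other group (-0.70 ± 0.12 on the log2 scale against EPRSTOPE, edgeR adjusted p = 0.00095).

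Of 17 tested antagonists and related secreted factors, 6 rose and 1 fell with EPR, 6 rose and 2 fell with EPRSTOPE, and EPR exceeded EPRSTOPE in 3 and lay below it in 2, with medians of 0.12, 0.41 and -0.10. Over all genes 28.1%, 28% and 13.2% changed in either direction in these comparisons. Spp1, the secreted protein osteopontin, had 821.8 ± 49.0, 2874 ± 147 and 1385 ± 154 CPM in mock, EPR and EPRSTOPE. Lif, another gp130 cytokine, had 40.3 ± 2.4, 67.7 ± 6.1 and 53.5 ± 2.1 CPM, of which EPR passed against mock and its difference from EPRSTOPE (0.34 ± 0.08) did not reach the fold. Cklf was lower in EPR, at 5.37 ± 1.13 CPM against 12.7 ± 0.7 in mock, with 8.7 ± 1.3 in EPRSTOPE. EPRSTOPE passed the thresholds against neither mock nor EPR for this gene.

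The NF-kB list had 16 higher and 2 lower of 44 tested genes in EPR against mock, 13 and 5 in EPRSTOPE, and 5 and 2 between EPR and EPRSTOPE, with medians of 0.27, 0.21 and 0.06, beside 15.2% higher and 12.9% lower over all genes in EPR and 15.6% and 12.4% in EPRSTOPE. The genes that moved were of differing roles. Ikbke, a kinase related to the IkB kinases, had 10.3 ± 1.1, 89.6 ± 6.6 and 70.6 ± 6.5 CPM, and Tlr4, the receptor of bacterial lipopolysaccharide, had 11.2 ± 0.7, 44.2 ± 7.8 and 48.9 ± 4.4 CPM. Cd14, the partner of Tlr4 that stood out in the leukocyte list, had 35.1 to 42.6, 287.0 to 316.9 and 186.7 to 211.4 CPM. Of the noncanonical branch, Map3k14, its kinase, fell to 21.1 ± 2.2 and 20.0 ± 1.3 CPM from 44.4 ± 3.7, and Nfkb2, its precursor subunit, fell to 152.2 ± 12.0 and 85.1 ± 4.5 CPM from 217.1 ± 6.2.

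Of 26 tested genes of JAK-STAT signalling, 7 rose and 2 fell with EPR, 8 rose and 2 fell with EPRSTOPE, and EPR exceeded EPRSTOPE in 0 and lay below it in 2, with medians of 0.13, 0.24 and -0.13, beside 28.1%, 28% and 13.2% of all genes changed in either direction. Stat5a rose from 3.69 ± 0.65 to 11.3 ± 1.0 and 13.3 ± 0.3 CPM, and Jak2 from 96.4 ± 2.3 to 173.3 ± 4.1 and 152.3 ± 4.0 CPM. Socs2, a feedback inhibitor, fell to 14.1 ± 1.2 CPM in EPR from 62.0 ± 5.3 in mock, with 44.1 ± 1.8 in EPRSTOPE. Socs7 fell to 36.0 ± 1.9 CPM in EPR from 54.1 ± 0.7 in mock, with 40.5 ± 3.3 in EPRSTOPE. The Socs7 fall in EPRSTOPE (-0.42 ± 0.08, edgeR adjusted p = 0.00097) did not reach the fold. Downstream of the chemokine receptors, 4 of 22 tested genes were higher and 5 lower with each construct, and 2 and 2 differed between EPR and EPRSTOPE, with medians of -0.08, -0.08 and -0.13. Higher calls made up 15.2% and 15.6% of all genes with EPR and EPRSTOPE, so this list lay near the background in that direction. Arrb1, an arrestin, had 23.5 ± 2.4, 43.6 ± 6.1 and 68.2 ± 6.9 CPM, and Gng12, a G protein subunit, had 64.4 ± 6.7, 99.4 ± 4.1 and 97.7 ± 5.7 CPM. The phospholipases Plcb4 and Plcb1 fell to 2.08 ± 0.63 and 1.51 ± 0.82 CPM in EPR from 18.1 ± 1.2 and 12.7 ± 1.8 in mock, and stood at 2.34 ± 0.63 and 1.67 ± 0.68 in EPRSTOPE.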

How the data were processed

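Total RNA of stably transfected NMuMG cells was sequenced as 9 stranded paired-end libraries. Per the labels and methods, the authors demultiplexed with bcl2fastq 2.0 and quantified with Kallisto 0.43.1 on Gencode vM15 transcripts. The deposited tables give estimated counts, not normalized, and TPM values, which the authors' tool scales by effective length to a fixed sum per library, both by transcript. Kallisto shares reads among similar transcripts, so counts of near-identical paralogs and of single isoforms are uncertain.

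Estimated counts of 131100 transcripts were summed per gene symbol and rounded. Those reaching 1 CPM in 3 or more libraries (15370 genes) went into edgeR 4.0.16 (quasi-likelihood, TMM, 1 factor of 3 levels over 9 libraries) in R 4.3.3 and were adjusted by Benjamini-Hochberg over all of them. Standard errors come from the F statistic, and fold values are ratios of mean CPM. DESeq2 1.42.0, limma 3.58.1 with voom and other settings were alternatives. An exact permutation test of 3 libraries against 3 cannot go below p = 0.1 (2-sided). Floors and intervals cover counting error only. Coordinates are those of Gencode M21 (GRCm38).

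The genes and lists were chosen with earlier results of these data known, and the motif and promoter windows after the values of the genes were seen. All but 1 of the tested genes of the families are named, and from the lists 1 gene is left out; these are not reported here. Those at 10 CPM or more in some group, or changed and at 2 CPM or more, are given per library, and from each list at most the 2 strongest rises and falls of EPR against mock among changed genes of at least 10 CPM. The single marker genes (Cdh1, Epcam, Ocln, Krt8, Krt18, Cd14, Ebf3, Pdgfra, Krt14, Acta2 and Mylk) and the neighbours of Cxcl5 and Ccl2 are outside this rule and were named after their values were seen. Proteins were not printed. Symbols ending in ps with or without a number (pseudogenes without counts) were left out.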

Additional observations from a re-analysis of the deposited data

Results flagged for a closer look

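The following 9 genes were picked out because the effects of the 2 constructs against the same mock libraries differed by a direct test of EPR against EPRSTOPE (edgeR, adjusted p under 0.01 and log2 fold change beyond 0.5). EPR exceeded EPRSTOPE on the log2 scale by 5.72 for Cxcl16, 3.51 for Cxcl15, 1.91 for Il33, 0.89 for Ccl20 and 0.85 for Ackr3. It lay below EPRSTOPE, at -2.62 for Il15, -2.17 for Ccl9, -1.60 for Cx3cl1 and -1.40 for Il6. The effects against mock had opposite signs and both passed the test in Il33 alone, at 0.86 in EPR and -1.05 in EPRSTOPE. Cxcl15 also had opposite signs, at 2.33 and -1.18, of which the second did not pass. In Ackr3, Ccl20, Ccl9, Cx3cl1 and Il6 both effects passed with the same sign and differed in size. Cxcl16 and Il15 passed with 1 construct each. For Il33, the 39 other tested genes within 5 Mb had a median of 0.66 in EPR against EPRSTOPE, and their part was not tested. In all 9 genes, the lower level of BC030870 RNA in EPRSTOPE, the missing peptide and any other difference between the transfected populations cannot be told apart.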

How the results depend on the processing

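The number of genes changed was 14 to 16 in EPR against mock, 13 to 14 in EPRSTOPE against mock and 7 to 11 in EPR against EPRSTOPE over the alternatives tried, with leave-one-out ranges of 14 to 16, 14 to 14 and 9 to 11. Of 900 values of 75 gene comparisons under alternatives, 885 kept their direction, where called, and side of the thresholds, 10 lost a call, 5 gained one and 0 reversed. The calls that moved are given beside Cxcl15, Il6, Il11, Il15, Il18 and Il34. Counts scaled from TPM gave 5 of the 10 losses, and the cause was not tested. Over all genes they gave 463 higher and 444 lower calls in EPR against EPRSTOPE, where the summed counts gave 1055 and 976, and fewer lower calls against mock (1260 against 1980 in EPR, 1194 against 1903 in EPRSTOPE). At a log2 fold change beyond 1, Il33 was lost in EPR against mock, and Ackr3 and Ccl20 in EPR against EPRSTOPE. No paired analysis was made, because the labels give each library a number of its own (203 to 211) and no pairing between groups. Whether libraries of different groups were prepared together is not known. Depth limits genes near 1 CPM most, among them Cxcl15, Il18 and the untested receptors.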
